A study of Homo sapiens with 6 samples.

Results

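The genes described here serve the assembly of the cornified envelope and lie outside the 1q21 gene cluster. They were chosen by name, with earlier results of these data known, from rows annotated as protein-coding. They comprise 10 of the 58735 genes with expression values: the transglutaminases TGM1, TGM2 and TGM3, the scaffold proteins PPL, EVPL and SCEL, the envelope proteins ANXA1 and CSTA, the lipid transporter ABCA12 and the kinase RIPK4. RNA-seq was performed in NCI-N87, an established human gastric carcinoma cell line, to ask which genes change when SCAMP1, a membrane protein of endocytic and secretory vesicles, is depleted. The control group (shCtrl, labelled shNC) carried the empty pSIH-H1-puro lentiviral vector, and the knockdown group (shS1#1, labelled shScamp1) carried the same vector with an shRNA against SCAMP1. Both groups were infected in the presence of polybrene and kept as stable populations under puromycin (2 µg/ml), and total RNA was taken near confluence from 3 samples of each. The knockdown rests on a single shRNA, and although the labels call the samples biological replicates, whether they came from separate infections or cultures is not given, so the p-values measure only the spread between these samples, which may be technical.

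The cornified envelope is a protein shell that replaces the plasma membrane of squamous epithelial cells as they complete differentiation. Its scaffold is laid down first, when envoplakin and periplakin settle under the membrane near desmosomes. Transglutaminases then join scaffold and precursor proteins by covalent bonds between glutamine and lysine residues, and many of the precursors, involucrin and the small proline-rich proteins among them, are encoded at 1q21. Lipids delivered by lamellar granules are finally attached to the outer face. A glandular gastric epithelium does not normally form such an envelope.

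The libraries held between 14311769 and 15988700 reads on genes. Expression was given as FPKM, in which fragments are scaled to gene length and library size. The targeted SCAMP1 had 12.6, 12.1 and 11.5 FPKM in shCtrl against 1.70, 1.37 and 1.99 FPKM in shS1#1 samples, the direction that the labels give. shS1#1 replicate 2 stood apart from the other shS1#1 libraries. Its mitochondrial share of reads was 9.21%, against 6.09% to 6.78% in the other 5 libraries, and its values moved with gene length. Relative to the mean of shS1#1 replicates 1 and 3, its median log2 difference was -0.46 for protein-coding genes of 1000 to 2000 bases and 0.21 for those over 7000 bases. Values that rest on this library are therefore given with and without it. All 7 markers of gastric carcinoma epithelium were expressed, and their summed level was 5528 to 5812 FPKM in shCtrl and 9234 to 10149 FPKM in shS1#1 libraries. Of 6 fibroblast, 5 leukocyte and 3 endothelial markers, 1, 1 and 0 reached the expression filter, and the defining fibroblast genes COL1A2, LUM and DCN were at 0 in all libraries. The summed levels in shCtrl and shS1#1 libraries were 0.533 to 0.689 and 0.487 to 0.773 FPKM for fibroblasts, 0.644 to 0.763 and 1.09 to 1.31 FPKM for leukocytes, and 0.139 to 0.235 and 0.381 to 0.612 FPKM for endothelium. The 5 markers of basal squamous epithelium summed to 260 to 280 FPKM in shCtrl and 461 to 520 FPKM in shS1#1 libraries, mostly from KRT6A, while TP63 was covered by 2 to 4 reads. At the adjusted p, 3 of the 4 tested were higher, as were 5 of the 7 gastric carcinoma markers, beside 8.82% of all genes. The leukocyte marker that reached the filter, LCP1, which epithelial tumour lines also express, had a log2 fold change of 0.71 (adjusted p = 0.0459 by limma, above 0.05 when any 1 library was left out). The part of these markers in the results was not tested. In these bulk samples, fewer cells of a type and less RNA per cell cannot be told apart.

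Of the 10 genes, 6 rose in shS1#1 cells and none fell. RIPK4, SCEL and ABCA12 more than doubled, TGM2, ANXA1 and PPL rose less, and EVPL and TGM1 did not pass the test. TGM3 and CSTA were covered by at most 2 and 5 reads per library and were not tested. Genes whose mean reached 0.5 FPKM were tested with limma on log2(FPKM + 0.1), a scale that understates the change of low genes, with Benjamini-Hochberg adjustment over 15556 genes. At an adjusted p under 0.05 and a log2 fold change above 1, 3 of the 8 genes tested were called higher, beside a background of 2.42% of all genes tested, and 0 were called lower, beside 0.746%. With the adjusted p alone, 6 of 8 were higher (background 8.82%) and 0 lower (background 5.17%). The count lower was also 0 at an unadjusted p under 0.05 and 0 by voom. In 7 of the 8 all 3 shS1#1 libraries lay above all 3 shCtrl libraries, beside 20.4% of all genes. The median log2 fold change of the 8 genes was 0.93, against -0.02 for all genes tested. Without shS1#1 replicate 2 it was 0.86, with 3 genes called higher (background 2.51%) and 7 past the adjusted p (background 14.7%). The 3 called genes were then RIPK4, SCEL and ANXA1, since ABCA12 fell under the fold threshold and ANXA1 passed it. Leaving out any 1 shCtrl library or shS1#1 replicate 3 left 2 called genes, RIPK4 and SCEL. In each of these fits only 4 genes, RIPK4, SCEL, TGM2 and ANXA1, passed the adjusted p, without PPL and ABCA12. The share of all genes past the adjusted p was not computed there.

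**Figure D1:**
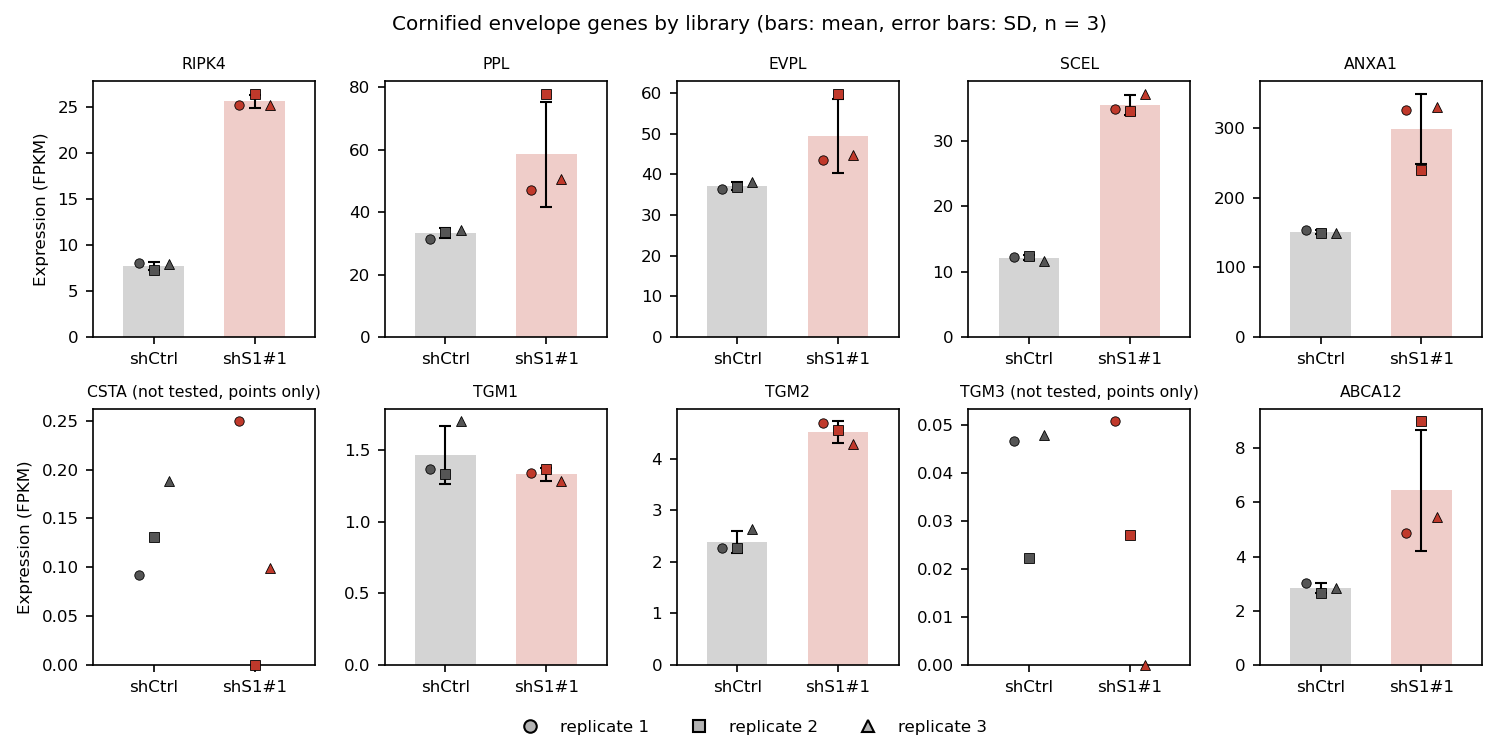
Expression of the 10 cornified envelope genes in each library (FPKM, linear axes from 0), with bars for the group mean and error bars for the SD (n = 3), and points alone for CSTA and TGM3, which were not tested. The shS1#1 points lay above all shCtrl points in 7 genes, and replicate 2 (squares) was far above the other shS1#1 libraries for PPL, EVPL and ABCA12 and the lowest for ANXA1.

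Promoter sequences were available from RefSeq (GRCh38.p14) for 4 of the 10 genes, ABCA12, ANXA1, SCEL and TGM3. The 3 that rose in shS1#1 cells are shown 5′ to 3′ as letters of the sense strand, each from 250 bases before the RefSeq start and ending before the first base of the gene in RefSeq and GENCODE, so that members that moved together can be compared. They cover chr13:77535456-77535673 (SCEL, forward strand), chr2:215138627-215138876 (ABCA12, reverse strand) and chr9:73151615-73151756 (ANXA1, forward strand), and no other annotated gene overlaps these windows. Capitals mark the AP-1 motif TGANTCA, which reads the same on both strands.
SCEL: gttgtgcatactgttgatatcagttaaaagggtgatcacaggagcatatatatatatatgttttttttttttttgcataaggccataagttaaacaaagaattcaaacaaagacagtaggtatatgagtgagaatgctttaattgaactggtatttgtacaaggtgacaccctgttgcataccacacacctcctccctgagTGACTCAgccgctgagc
ABCA12: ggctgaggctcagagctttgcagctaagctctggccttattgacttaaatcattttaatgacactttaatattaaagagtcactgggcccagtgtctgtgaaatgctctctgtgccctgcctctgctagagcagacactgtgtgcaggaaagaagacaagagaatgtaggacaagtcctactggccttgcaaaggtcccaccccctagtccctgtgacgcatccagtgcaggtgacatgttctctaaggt
ANXA1: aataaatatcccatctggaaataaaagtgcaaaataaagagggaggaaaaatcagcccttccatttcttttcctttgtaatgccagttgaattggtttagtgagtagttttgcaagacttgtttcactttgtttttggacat
The motif TGANTCA was found in SCEL, starting 49 bases before the RefSeq start, and in neither of the others. Over 35116 RefSeq promoters it was present in 6.57% of the 250 bases before the start. TATAAA, searched on both strands, was found 31 bases before the RefSeq start of ANXA1, beyond the end of the sequence shown, and in 10.7% of all promoters. The core of the interferon-stimulated response element, searched on both strands, was in none of the 3 genes and in 3.02% of all promoters.

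RIPK4 encodes a receptor-interacting serine/threonine kinase that acts upstream of epidermal differentiation. It had the largest log2 fold change of the 8 genes tested. RIPK4 (ENSG00000183421) lies on chromosome 21 from 41739369 to 41767106 on the reverse strand and was at 8.10, 7.26 and 7.91 FPKM in shCtrl and at 25.2, 26.4 and 25.2 FPKM in shS1#1 libraries. The 3 shS1#1 libraries were close to each other and well above the control libraries. The mean of 7.76 ± 0.440 FPKM rose to 25.6 ± 0.716 FPKM (SD, 3 libraries each). The log2 fold change was 1.71 (SE 0.07, adjusted p = 0.000168 by limma), and without shS1#1 replicate 2 the log2 fold change was 1.69. On the level scale, RIPK4 moved from the 66.1 to the 89.3 percentile of the genes tested. It shared 461 exon bases with AP001615.1 on the opposite strand, a gene with 0 reads in every library.

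Among 11 other genes listed with RIPK4 as regulators of epithelial barrier formation, 3 of the 9 tested were higher at the adjusted p and 0 lower. The shares of all genes tested were 8.82% higher and 5.17% lower. The median log2 fold change of the 9 regulators was 0.12. GRHL3, a grainyhead transcription factor of the barrier, rose from 5.94 ± 0.447 to 19.9 ± 0.605 FPKM (SD, 3 libraries each; log2 fold change 1.73, adjusted p = 0.000192 by limma). OVOL1, a zinc finger repressor of progenitor genes, and PRDM1, a repressor also known as BLIMP1, had log2 fold changes of 0.85 and 1.10 (adjusted p = 0.00206 and 0.0101 by limma). PRDM1 was highest in shS1#1 replicate 2, at 4.30 FPKM against 3.25 and 2.83 FPKM in the others, and its log2 fold change without that library was 0.93 (adjusted p = 0.00468 by limma). The regulators past the fold threshold then numbered 1 instead of 2, and 4 were higher and 1, the plakophilin PKP1, lower at the adjusted p. Of all genes tested, 14.7% were higher in that fit, and the share lower was not computed. The adjusted p of PRDM1 was 0.0517 without shCtrl replicate 3.

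Periplakin (PPL) and envoplakin (EVPL), the plakins of the envelope scaffold, were among the most highly expressed of the 10 genes, at the 92.0 and 93.1 percentile of the genes tested in shCtrl and at the 96.1 and 95.1 percentile in shS1#1 cells. PPL (ENSG00000118898, chromosome 16 from 4882507 to 4960741, reverse strand) was at 31.5, 33.8 and 34.5 FPKM in shCtrl and at 47.2, 78.0 and 50.6 FPKM in shS1#1 libraries. EVPL (ENSG00000167880, chromosome 17 from 76004502 to 76027452, reverse strand) was at 36.3, 36.9 and 38.1 FPKM in shCtrl and at 43.4, 59.8 and 44.8 FPKM in shS1#1 libraries. For both genes the groups did not overlap, and replicate 2 was far above the other shS1#1 libraries. PPL had a log2 fold change of 0.78 (SE 0.19, adjusted p = 0.0436 by limma) with all libraries and of 0.56 (SE 0.06, adjusted p = 0.00200) without replicate 2. EVPL had a log2 fold change of 0.40 (SE 0.13, adjusted p = 0.0962 by limma) with all libraries, and was higher by 0.25 (SE 0.04, adjusted p = 0.00725) without replicate 2. PPL no longer passed the adjusted p without any 1 of the shCtrl libraries or without shS1#1 replicate 3, where it reached up to 0.148.

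The ratio of PPL to EVPL, whose annotated lengths of 7686 and 7510 bases are similar, lay on opposite sides of 1 in the groups. It was 0.866, 0.916 and 0.904 in shCtrl and 1.09, 1.30 and 1.13 in shS1#1 libraries. EVPL was the more abundant transcript per length in each control library, and PPL in each knockdown library. The log2 ratio differed by 0.39 (p = 0.1 in an exact permutation test, two-sided, which cannot give less with 3 libraries against 3), and by 0.31 without replicate 2.

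Replicate 2 was also the highest shS1#1 library for the other 5 plakins measured. By level in shCtrl cells, PLEC stood at 243.8 ± 6.80 FPKM, DSP at 36.1 ± 0.947, EPPK1 at 18.8 ± 0.232, MACF1 at 13.6 ± 0.198 and DST at 3.43 ± 0.216, with the periplakin partner KAZN at 1.33 ± 0.0507 FPKM (SD, n = 3). Of these 6, 0 passed the adjusted p with all libraries, beside 8.82% of all genes tested higher and 5.17% lower. Their median log2 fold change was 0.44. Without replicate 2 the median was 0.14, with PLEC higher (log2 fold change 0.39, adjusted p = 0.00513 by limma) and EPPK1 lower (-0.32, adjusted p = 0.0260). In replicate 2 the log2 difference from the other shS1#1 libraries was 0.67 for PPL and 0.44 for EVPL, at the 92.6 and 85.3 percentile of all genes tested. For TGM2, which has 8036 bases, the difference was only 0.02. With trends over length and GC content removed the log2 fold changes were 0.74 for PPL (adjusted p = 0.0405 by limma) and 0.41 for EVPL (adjusted p = 0.0813). In the same fit the median of the 6 other genes was 0.09, with DST at 0.16 and MACF1 at 0.03, and 1 of them, PLEC, passed the adjusted p (log2 fold change 0.57, adjusted p = 0.0351).

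**Figure D2:**
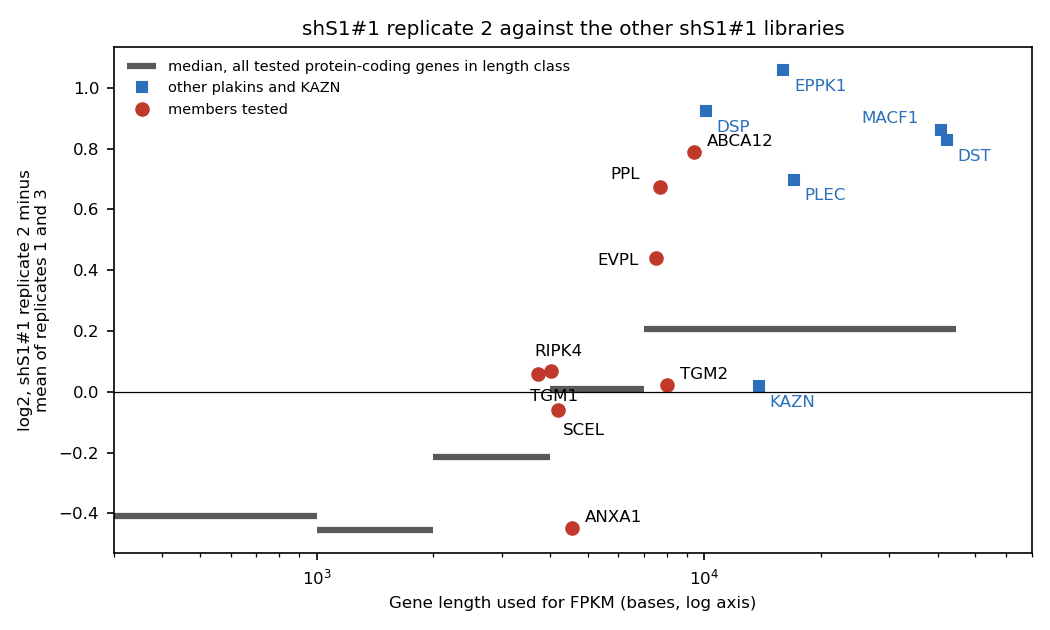
Difference of shS1#1 replicate 2 from the mean of shS1#1 replicates 1 and 3 (log2) against gene length (bases, log axis), with grey lines for the median of all protein-coding genes tested in a length class, red circles for the 8 members tested and blue squares for other plakins and KAZN. ABCA12 (0.79) and PPL (0.67) lay above the median of 0.21 for genes over 7000 bases, TGM2 lay below it, and ANXA1 lay at -0.45.

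The plakin scaffold is tied to desmosomes, the adhesive junctions of the epithelium. Of 14 desmosomal genes listed, 9 were tested, with a median log2 fold change of 0.19. At the adjusted p 3 were higher and 0 lower, beside 8.82% and 5.17% of all genes tested. The 3 higher were PERP, a membrane protein of desmosomes (log2 fold change 0.46, adjusted p = 0.0136 by limma), JUP, which encodes plakoglobin (0.51, adjusted p = 0.0207), and PKP3, a plakophilin (0.36, adjusted p = 0.0430). The count was 0 without any 1 of the shCtrl libraries or without shS1#1 replicate 3, and without shS1#1 replicate 2 it was 4 higher and 2 lower. In that last fit 14.7% of all genes tested were higher, and the share lower was not computed.

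Sciellin (SCEL), a LIM-domain precursor protein of the envelope, showed the second largest change. SCEL (ENSG00000136155, chromosome 13 from 77535674 to 77645263, forward strand) was at 12.3, 12.4 and 11.7 FPKM in shCtrl and at 34.8, 34.5 and 37.2 FPKM in shS1#1 libraries. Both groups were tight, and the lowest knockdown library was far above the highest control library. The mean of 12.1 ± 0.387 FPKM rose to 35.5 ± 1.48 FPKM (SD, 3 libraries each). The log2 fold change was 1.54 (SE 0.06, adjusted p = 0.000168 by limma), and the value without replicate 2 was 1.56. SCEL overlaps SCEL-AS1 on the opposite strand over 144 exon bases, but the latter had at most 7 reads. The promoter with the AP-1 motif shown above belongs to this gene.

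Annexin A1 (ANXA1), a calcium-dependent membrane-binding protein that transglutaminases incorporate into the envelope, was the most abundant of the 10 transcripts per length. ANXA1 (ENSG00000135046, chromosome 9 from 73151757 to 73170393, forward strand) was at 154, 149 and 149 FPKM in shCtrl and at 326, 240 and 329 FPKM in shS1#1 libraries. All knockdown libraries were above the controls, and here replicate 2 was the lowest of them. The log2 fold change was 0.97 (SE 0.13, adjusted p = 0.00709 by limma) with all libraries and 1.12 (SE 0.03, adjusted p = 6.3e-05) without replicate 2, so that this library decides on which side of the fold threshold ANXA1 falls. In the 6 fits that each lacked 1 library, its adjusted p was 0.0443 or less.

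ANXA1 made up 28.2%, 27.6% and 27.1% of the summed FPKM of 13 annexins in shCtrl and 44.8%, 42.4% and 45.9% in shS1#1 libraries. Of the 12 other annexins, 10 were tested, with a median log2 fold change of 0.15. At the adjusted p 2 were higher and 0 lower, beside 8.82% and 5.17% of all genes tested. ANXA9 and ANXA11 had log2 fold changes of 0.72 and 0.48 (adjusted p = 0.00261 and 0.00452 by limma). Without replicate 2, 4 were higher and 2 lower, in a fit where 14.7% of all genes tested were higher and the share lower was not computed. ANXA2, another known envelope substrate, was the most abundant annexin of the control cells at 221 ± 5.86 FPKM and was at 165 ± 30.2 FPKM in shS1#1 cells (SD, n = 3 each). Its log2 fold change was -0.44 (adjusted p = 0.0928 by limma), and without replicate 2 it was lower by -0.28 (adjusted p = 0.00791). In FPKM, ANXA1 thus exceeded ANXA2 in each knockdown library and in none of the control libraries. This order depends on the gene lengths used, 4561 bases for ANXA1 and 8824 for ANXA2. In reads, ANXA2 was above ANXA1 in every library, at 24242, 15820 and 22754 against 21700, 14995 and 21982 in shS1#1 libraries.

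Cystatin A (CSTA), a cysteine protease inhibitor found in the envelope, was barely detected. CSTA (ENSG00000121552, chromosome 3 from 122325244 to 122341972, forward strand) was covered by 2, 3 and 4 reads in shCtrl and by 5, 0 and 2 reads in shS1#1 libraries. The groups overlapped, and 3 reads correspond to 0.131 to 0.160 FPKM, so a difference was not detectable at this depth. Of 8 other envelope substrates encoded outside 1q21, 6 were tested, with a median log2 fold change of 0.23. At the adjusted p 2 were higher and 0 lower, beside 8.82% and 5.17% of all genes tested. CST6, which encodes the related inhibitor cystatin M/E, rose from 32.0 ± 1.82 to 115 ± 21.2 FPKM (SD, 3 libraries each; log2 fold change 1.83, adjusted p = 0.00106 by limma). SERPINB2, a serpin of the envelope, had a log2 fold change of 1.03 (adjusted p = 0.0215 by limma) and passed the adjusted p only with all libraries or without shS1#1 replicate 2.

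The transglutaminases, which cross-link the envelope, changed unequally. TGM2, the widely expressed tissue enzyme, rose, whereas TGM1, the membrane-bound enzyme of keratinocytes, was at similar levels in the groups. TGM2 (ENSG00000198959, chromosome 20 from 38127387 to 38166578, reverse strand) was at 2.27, 2.26 and 2.64 FPKM in shCtrl and at 4.70, 4.56 and 4.29 FPKM in shS1#1 libraries. The groups did not overlap, and replicate 2 lay between the other knockdown libraries. The log2 fold change was 0.89 (SE 0.09, adjusted p = 0.00261 by limma), also 0.89 without replicate 2. TGM2 shares 394 exon bases (4.90% of its exons) with RPRD1B on the opposite strand, whose means were 11.6 and 11.3 FPKM in shCtrl and shS1#1 cells, and whether strand was used in counting is not given.

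TGM1 (ENSG00000092295, chromosome 14 from 24249114 to 24264432, reverse strand) was at 1.37, 1.33 and 1.70 FPKM in shCtrl and at 1.34, 1.37 and 1.28 FPKM in shS1#1 libraries. The groups overlapped. The log2 fold change was -0.13 (95% confidence interval -0.46 to 0.21, adjusted p = 0.577 by limma), an interval that holds small changes in either direction. With 70 to 98 reads per library, counting error alone gave a coefficient of variation of 10.7% in shCtrl and 11.9% in shS1#1 libraries. The ratio of TGM1 to TGM2 was 0.603, 0.589 and 0.643 in shCtrl and 0.285, 0.300 and 0.299 in shS1#1 libraries. The ratio was lower in each knockdown library, by -1.05 on the log2 scale (p = 0.1 in the same exact permutation test).

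TGM3, the enzyme that cross-links small proline-rich proteins in the cytosol (ENSG00000125780, chromosome 20 from 2296001 to 2341078, forward strand), was covered by 2, 1 and 2 reads in shCtrl and by 2, 1 and 0 reads in shS1#1 libraries. The groups overlapped at or under the level of 3 reads, 0.0669 to 0.0814 FPKM. The summed level of TGM1, TGM2 and TGM3 was 3.68, 3.62 and 4.39 FPKM in shCtrl and 6.09, 5.96 and 5.57 FPKM in shS1#1 libraries, a log2 difference of 0.60 (p = 0.1, exact permutation test). TGM2 accounted for 61.4% ± 1.17 of this sum in shCtrl and for 76.9% ± 0.320 in shS1#1 cells (SD, n = 3 each). The 6 other family members were not tested. TGM5, a further epidermal enzyme, was the highest of them, at 0.278, 0.215 and 0.214 FPKM in shCtrl and at 0.0754, 0.161 and 0.0941 FPKM in shS1#1 libraries, from 4 to 16 reads. TGM4, TGM6, TGM7, F13A1 and EPB42 had at most 5 reads in any library.

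**Figure D3:**
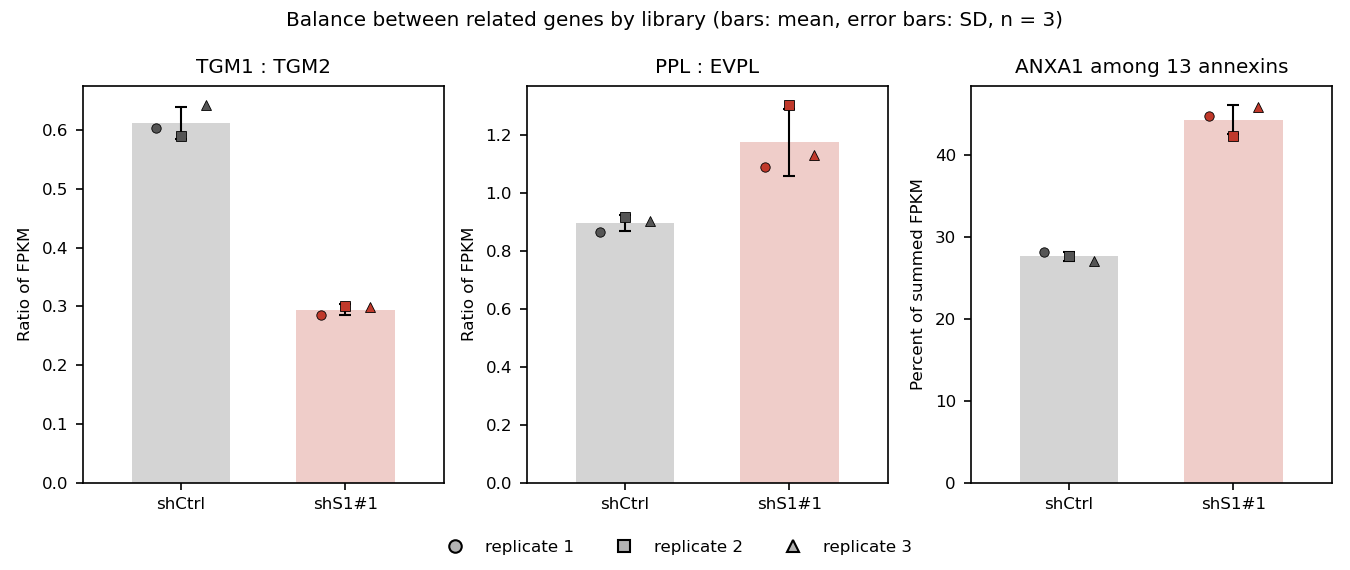
Ratio of TGM1 to TGM2 FPKM, ratio of PPL to EVPL FPKM, and ANXA1 as a percentage of the summed FPKM of 13 annexins in each library, with bars for the mean and error bars for the SD (n = 3). In all 3 panels the groups do not overlap, with TGM1 to TGM2 at 0.589 or more in shCtrl and at 0.300 or less in shS1#1 libraries.

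ABCA12, the transporter that loads lipids into lamellar granules, rose with a wide spread. ABCA12 (ENSG00000144452, chromosome 2 from 214931542 to 215138428, reverse strand) was at 3.02, 2.66 and 2.84 FPKM in shCtrl and at 4.87, 8.99 and 5.48 FPKM in shS1#1 libraries. The groups did not overlap, but replicate 2 was far above the other knockdown libraries, at a log2 difference of 0.79 from them (94.3 percentile of all genes tested). The log2 fold change was 1.10 (SE 0.22, adjusted p = 0.0253 by limma) with all libraries and 0.84 (SE 0.09, adjusted p = 0.00237) without replicate 2. The adjusted p was above 0.05 without any 1 of the shCtrl libraries or without shS1#1 replicate 3, at up to 0.102. With trends over length and GC content removed, the log2 fold change was 1.02 (adjusted p = 0.0118 by limma). ABCA12 shared 58 exon bases with AC072062.1 on the opposite strand, which had at most 6 reads.

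Of 22 other genes of the lipid envelope, 14 were tested, with a median log2 fold change of 0.25. At the adjusted p 4 were higher and 0 lower, beside 8.82% and 5.17% of all genes tested. ABHD5, the co-activator of the lipase that releases fatty acids for acylceramides, had a log2 fold change of 0.88 (adjusted p = 0.00504 by limma). SMPD1, acid sphingomyelinase, had one of 1.17 (adjusted p = 0.0122) and FA2H, a fatty acid hydroxylase, one of 0.43 (adjusted p = 0.0155). The count was 2 without shCtrl replicate 1 or shCtrl replicate 2, 1 without shS1#1 replicate 3, and 7 higher with 1 lower without shS1#1 replicate 2. In that last fit 14.7% of all genes tested were higher, and the share lower was not computed. ELOVL4 and CYP4F22, which make the very long acyl chains and hydroxylate them, were at 0 in all libraries.

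**Figure D4:**
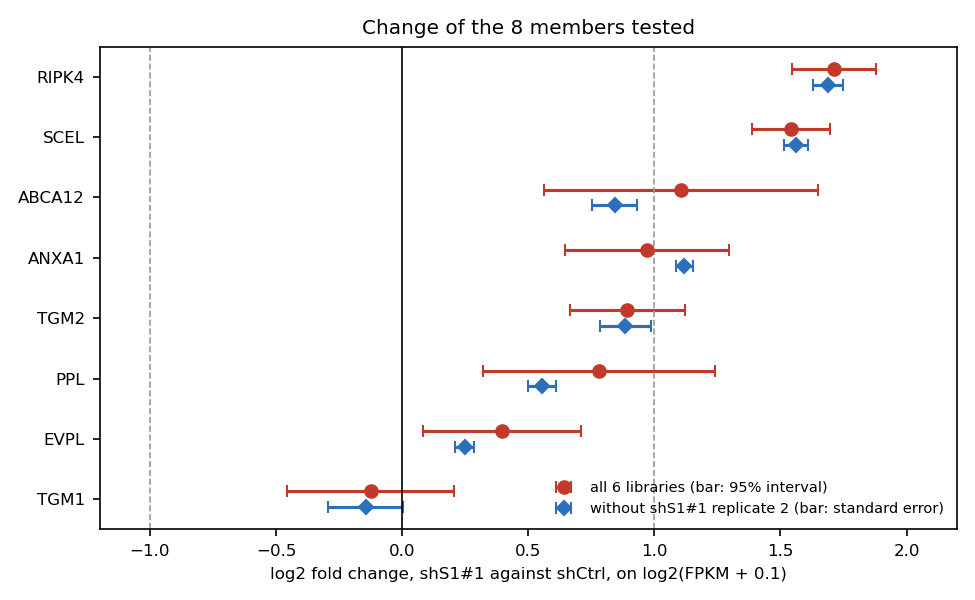
Log2 fold change of the 8 members tested (shS1#1 against shCtrl, on log2(FPKM + 0.1)) with all 6 libraries (circles, bars for the 95% confidence interval) and without shS1#1 replicate 2 (diamonds, bars for the standard error), dashed lines at -1 and 1. RIPK4 and SCEL lay beyond 1 in both, ABCA12 moved from 1.10 to 0.84 and ANXA1 from 0.97 to 1.12.

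The proteins that the transglutaminases join, encoded at 1q21, and the proteases that process them gave the wider setting of these changes. Of 22 precursor genes at 1q21, 11 were tested and 6 were higher, all of them also past the fold threshold, with 0 lower and a median log2 fold change of 1.39. Over all genes tested, 8.82% were higher, 2.42% were higher and past the fold threshold, and 5.17% were lower. When 1 library was left out, 4 to 7 precursors were higher, with 7 in the fit without shS1#1 replicate 2. Involucrin (IVL), the scaffold precursor, rose from 81.5 ± 2.36 to 341 ± 10.8 FPKM (SD, 3 libraries each; log2 fold change 2.07, adjusted p = 0.000165 by limma). RPTN and SPRR3 had log2 fold changes of 3.09 and 2.53 (adjusted p = 0.000168 and 0.000248 by limma). These changes were larger in log2 fold than those of any of the 8 envelope genes tested outside 1q21. Of 15 proteases and inhibitors of cornification, 11 were tested, with a median log2 fold change of 0.14. At the adjusted p 5 were higher and 1 was lower, beside 8.82% and 5.17% of all genes tested. SPINT1, an inhibitor of matriptase, and CTSV, a lysosomal cysteine protease, had log2 fold changes of 0.88 and 0.89 (adjusted p = 0.00129 and 0.00186 by limma). KLK14, a kallikrein protease, fell from 53.6 ± 1.43 to 27.8 ± 3.40 FPKM (SD, 3 libraries each; log2 fold change -0.95, adjusted p = 0.00266 by limma). Without shS1#1 replicate 2, 6 were higher and 2 lower. In that fit 14.7% of all genes tested were higher and the share lower was not computed. The count higher was 4 without any 1 of the shCtrl libraries or without shS1#1 replicate 3.

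**Figure D5:**
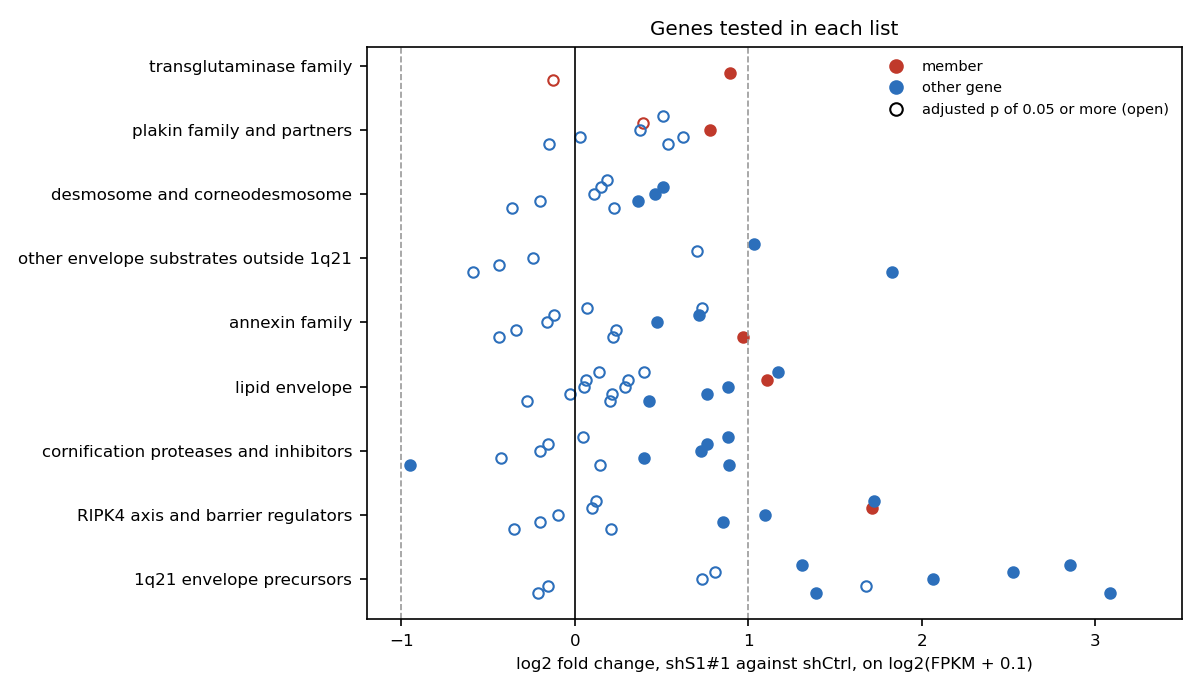
Log2 fold change (shS1#1 against shCtrl, on log2(FPKM + 0.1)) of every gene tested in 9 lists, red for members and blue for other genes, filled where the adjusted p was under 0.05 and open otherwise, with dashed lines at -1 and 1. The 1q21 precursors reach the highest values, up to 3.09, and KLK14 at -0.95 is the gene past the adjusted p that is lower.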

How the data were processed

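Total RNA of 6 samples was sequenced, and the authors deposited 1 FPKM value per gene and library with gene lengths and coordinates. The submitters' processing notes name HISAT2 2.0.5, featureCounts 1.5.0-p3, DESeq2 1.20.0 and the build hg38, without the settings, and whether strand was used is not given in the sources used here. Coordinates of all 58735 genes equalled GENCODE 29. FPKM multiplied by gene length gave whole reads in 100% of values (tolerance 0.02 reads or 1e-05 of the reads, whichever was larger), from which depth was taken. The deposited FPKM already contained a scaling between libraries. Floors of 3 reads cover counting error only, whereas confidence intervals of fold changes come from limma and reflect the spread between libraries.

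limma 3.58.1 (R 4.3.3; lmFit, eBayes with trend) was applied to log2(FPKM + 0.1) for genes whose mean reached 0.5 FPKM, with Benjamini-Hochberg adjustment. It was also run on simulated data. These gave all genes and libraries the same dispersion and held no deviating library, so they do not cover the departure of shS1#1 replicate 2. Ratios used exact permutation tests in Python 3.11.15 (scipy 1.17.1). Members and gene lists were chosen with earlier results of these data known, and the lists, written by hand, support nothing independently. Named genes outside the members were up to 3 per list with the smallest p past the adjusted p, and all transglutaminases and plakins. Other genes named, such as ANXA2, ELOVL4, CYP4F22 and markers, were chosen after their values were seen. Alternatives covered the pseudocount, filter, scaling, trend, biotype, voom, replicate block and each library left out. Removal of trends with length and GC content was added after seeing the data. Some genes of the lists are not reported here by name.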

Additional observations from a re-analysis of the deposited data

How the results depend on the processing

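No log2 fold change of the 8 genes tested changed sign in 127 recomputed values, of which 113 stayed on the same side of the adjusted p. PPL lost the adjusted p in 7 and ABCA12 in 6, and EVPL gained it without shS1#1 replicate 2. The members called higher numbered 2 or 3 under the alternatives, with 2 (RIPK4 and SCEL) at a pseudocount of 1, where ABCA12 had a log2 fold change of 0.92, and 2 without the expression filter. No pairing by replicate number was detected (correlations of deviations from -0.04 to 0.07 for equal numbers). With so few libraries this cannot show that the samples were handled separately. With the replicate block 2 members were called higher and 4 passed the adjusted p. The log2 differences of the ratios stayed between 0.31 and 0.44 for PPL to EVPL and between -1.08 and -1.02 for TGM1 to TGM2 when each library was left out. Over all 15556 genes tested, 376 were called higher and 116 lower, against 204 and 44 at a pseudocount of 1, and 53 to 61 lower without 1 shCtrl library. At a filter of 2 FPKM, which left 10526 genes, 257 were called higher and 58 lower. Depth limits CSTA and TGM3, with 0 to 5 reads, and, among the genes tested, TGM1 most.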

Other observations

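Of the genes listed beside the members, 40 lay under the expression filter and were not tested. In 5 of them, CRNN, KLK5, DSG4, F13A1 and FLG2, all knockdown libraries lay above all control libraries, and in 3, TGM5, CERS3 and PNPLA1, they lay below. Among the genes tested, 20.4% had all knockdown libraries above all control libraries. No such share was computed for genes under the filter or for the lower direction, so these counts are not a result about the lists. Values follow for 3 genes that were chosen after their values were seen, for lying higher. CRNN, which encodes cornulin, was covered by 0 reads in a pair of shCtrl libraries and was at 0, 0.126 and 0 FPKM in shCtrl and at 1.12, 0.499 and 0.539 FPKM in shS1#1 libraries, from at most 31 reads. KLK5, a kallikrein protease of corneodesmosome shedding, was at 0.229, 0.218 and 0.157 FPKM in shCtrl and at 0.456, 0.530 and 0.538 FPKM in shS1#1 libraries, from 4 to 13 reads. DSG4, a desmoglein, was at 0.269, 0.281 and 0.289 FPKM in shCtrl and at 0.365, 0.575 and 0.480 FPKM in shS1#1 libraries, from 20 to 37 reads. CERS3 and PNPLA1 had at most 2 and 3 reads in any library and 0 in the knockdown libraries.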
